A study of Mus musculus with 18 samples.

Results

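Transcripts of skeletal muscle were followed in RNA-seq libraries of fat. They were 10 genes, taken by symbol from the count tables of 25124 genes: Acta1, Ckm, Myh1, Myh2, Myh4, Mylpf, Tnnt3, Tnni2, Tnnc2 and Atp2a1. They were chosen by the size and spread of their counts in these libraries, mainly in brown adipose tissue (BAT). The size and spread of their levels there are therefore described and not tested. Comparisons of the genotypes in BAT use these same counts, which limits them. The 18 libraries came from BAT, inguinal white adipose tissue (iWAT) and epididymal white adipose tissue (eWAT) of male C57BL/6J mice, with 3 wildtype (WT) and 3 caspase-6 knockout (C6KO) libraries in each depot. C6KO mice are global knockouts of caspase-6 and were bred from heterozygous parents, and the mice of both genotypes ate a high-fat diet (HFD, 60% of calories from fat) for 12 weeks from an age of 10 to 14 weeks. No chow-fed mice and no muscle samples were among these libraries.

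Skeletal muscle contracts when myosin heads of the thick filament pull on actin of the thin filament. Calcium released from the sarcoplasmic reticulum frees the actin through the troponin complex, a calcium pump then clears it, and creatine kinase restores the ATP that is spent. Fast and slow fibres use different isoforms of nearly all these proteins, and the 10 genes are mostly the fast ones. Brown adipocytes arise from a precursor shared with muscle, and the main brown depot of mice lies between the shoulder blades, over muscles of the back. Which cells the muscle RNA in these libraries came from was not tested. In bulk tissue, fewer cells of a type and less RNA per cell cannot be told apart.

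Total counts were 7803108 to 12428683 in BAT, 16506034 to 19043523 in iWAT and 16717201 to 19139694 in eWAT, so 1 count weighed more in BAT. Casp6, the targeted gene, was counted 145, 127 and 139 times in BAT of WT mice and 26, 65 and 71 times in BAT of C6KO mice, and no C6KO library of any depot reached the level of a WT library. The BAT libraries carried the defining brown fat transcript Ucp1 at 4172 to 9682 CPM (each count scaled by the total of its library), against at most 5.80 CPM in the white depots. Library WT-2 of BAT stood apart from the others in muscle RNA, and results that rest on it are given with and without it.

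Upstream sequence was read for the genes the results turn on, since these transcripts moved together in BAT and Acta1 behaved differently in white fat. Of the 10 genes, 8 were matched by symbol in the set of RefSeq windows (GRCm38.p6) used here, and Tnnt3 and Tnni2 were not. The 250 bases before the start site are shown for Acta1 (chr8:123894776-123895025, minus strand), Ckm (chr7:19410844-19411093, plus strand), Myh4 (chr11:67237562-67237811, plus strand) and, for comparison, the smooth muscle actin Acta2 (chr19:34255374-34255623, minus strand). Capitals mark each E-box (CANNTG, the site of MyoD family factors, which reads alike on both strands). They also mark each full match to the CArG box (CCWWWWWWGG, with W for A or T), the site of serum response factor. Copies with a changed base were not searched for, so a window without a marked CArG box, as for Acta2, can still hold such a copy.
Acta1: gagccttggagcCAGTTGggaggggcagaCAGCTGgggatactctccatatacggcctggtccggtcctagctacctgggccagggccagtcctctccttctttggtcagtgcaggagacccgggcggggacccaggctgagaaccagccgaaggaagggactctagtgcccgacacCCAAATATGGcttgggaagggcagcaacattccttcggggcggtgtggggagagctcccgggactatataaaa
Ckm: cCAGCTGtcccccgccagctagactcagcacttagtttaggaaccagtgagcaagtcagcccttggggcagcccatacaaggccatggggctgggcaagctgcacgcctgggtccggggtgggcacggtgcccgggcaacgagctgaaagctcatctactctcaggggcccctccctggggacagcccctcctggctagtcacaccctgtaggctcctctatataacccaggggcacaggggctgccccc
Myh4: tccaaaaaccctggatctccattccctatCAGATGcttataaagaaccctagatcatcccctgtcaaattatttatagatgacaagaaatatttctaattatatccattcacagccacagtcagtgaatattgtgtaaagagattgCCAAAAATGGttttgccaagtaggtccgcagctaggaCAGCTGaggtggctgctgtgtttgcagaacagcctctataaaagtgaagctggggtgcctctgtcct
Acta2: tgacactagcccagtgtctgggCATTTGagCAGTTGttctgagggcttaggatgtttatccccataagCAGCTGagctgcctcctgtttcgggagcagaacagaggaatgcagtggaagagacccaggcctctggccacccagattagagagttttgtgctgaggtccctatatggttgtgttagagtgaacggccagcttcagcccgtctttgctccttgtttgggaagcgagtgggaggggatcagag
An E-box was present in 6 of the 8 windows, against 66.2% of all 32841 windows of the same length. A full match to the CArG box was present in those of Acta1 and Myh4, against 1.47% of all windows, and the MEF2 element was in 0 of 8, against 0.509%. Both longer motifs were searched on both strands, and a match is a description of letters, not a site in use.

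Acta1 encodes the skeletal muscle actin of the thin filament (NM_001272041, chromosome 8 of mm10 from 123891758 to 123894775). In BAT its counts were 95, 107683 and 2807 for WT-1, WT-2 and WT-3, and 12074, 1114 and 12824 for C6KO-1, C6KO-2 and C6KO-3. All values are given in this order. These were 12.2, 9461 and 288 CPM in WT and 1398, 89.6 and 1283 CPM in C6KO. WT held both the lowest library, WT-1, and the highest, WT-2, and all 3 C6KO libraries lay between them. Per transcript length Acta1 was the most abundant of the 10, with a mean of 3088 TPM (counts scaled by transcript length and then by library) over the 6 BAT libraries and 859.7 TPM without WT-2.

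The thick filament genes were as spread. Myh4, the heavy chain of the fastest fibres (type IIb), lies on chromosome 11 from 67237812 to 67260447, beside Myh1 (type IIx) and Myh2 (type IIa). Myh4 had 9.10, 8733 and 615 CPM in BAT of WT and 1576, 120 and 2918 CPM in C6KO. Myh1 had 4.36, 3795 and 109.6 CPM in WT and 458, 53.8 and 310.1 CPM in C6KO. Myh2 had 0.769, 1537 and 42.7 CPM in WT and 241, 7.88 and 101 CPM in C6KO. The order of libraries resembled that of Acta1 for all 3, and Myh2, at 6 counts in WT-1, spanned the widest range of the 10 (1999-fold). The 3 heavy chain transcripts are 86.42% to 88.4% identical, and 20.14% of the 50-base windows of Myh1 recur in Myh2, so part of their split is uncertain. Mylpf, the fast regulatory light chain (chromosome 7, 127211608 to 127214287), had 2.82, 990.5 and 45.1 CPM in WT and 123, 8.61 and 222 CPM in C6KO, the narrowest range at 351-fold.

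The fast troponin complex consists of Tnnt3, which binds tropomyosin, Tnni2, which inhibits contraction, and Tnnc2, which binds calcium. Tnnt3 had 3.72, 2562 and 108 CPM in BAT of WT and 364, 22.7 and 432 CPM in C6KO. Tnni2 had 1.92, 1504 and 59.9 CPM in WT and 222, 11.7 and 242 CPM in C6KO. Tnnc2 had 1.41, 1342 and 58.2 CPM in WT and 199, 13.4 and 229 CPM in C6KO. Per length the subunits had means of 1299.6 TPM (Tnnt3), 1097 TPM (Tnni2) and 1034 TPM (Tnnc2), which WT-2 carried, and of 394, 328 and 320.4 TPM without it. Their levels were thus close to each other either way, although Tnnc2 lies on chromosome 2 and the other subunits on chromosome 7. C6KO-1 and C6KO-3 differed by at most 1.19-fold for any of them.

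Ckm, the muscle creatine kinase (NM_007710, chromosome 7 from 19411094 to 19421583), had 3.84, 3390.2 and 146 CPM in BAT of WT and 542, 35.6 and 680.5 CPM in C6KO. Atp2a1, the fast calcium pump of the sarcoplasmic reticulum (chromosome 7, 126445860 to 126463073), had 8.71, 7697 and 316 CPM in WT and 1191, 80.1 and 1738 CPM in C6KO. Both again had WT-1 lowest and WT-2 highest. Ckm, Myh1, Tnnt3 and Atp2a1 each overlap a gene of the other strand in the table, A930016O22Rik, Myhas, Prr33 and Rabep2. The strand setting of the counting is not given in the sources used here, and A930016O22Rik reached 16098 counts in WT-2, where Ckm had 38587.

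**Figure D1:**
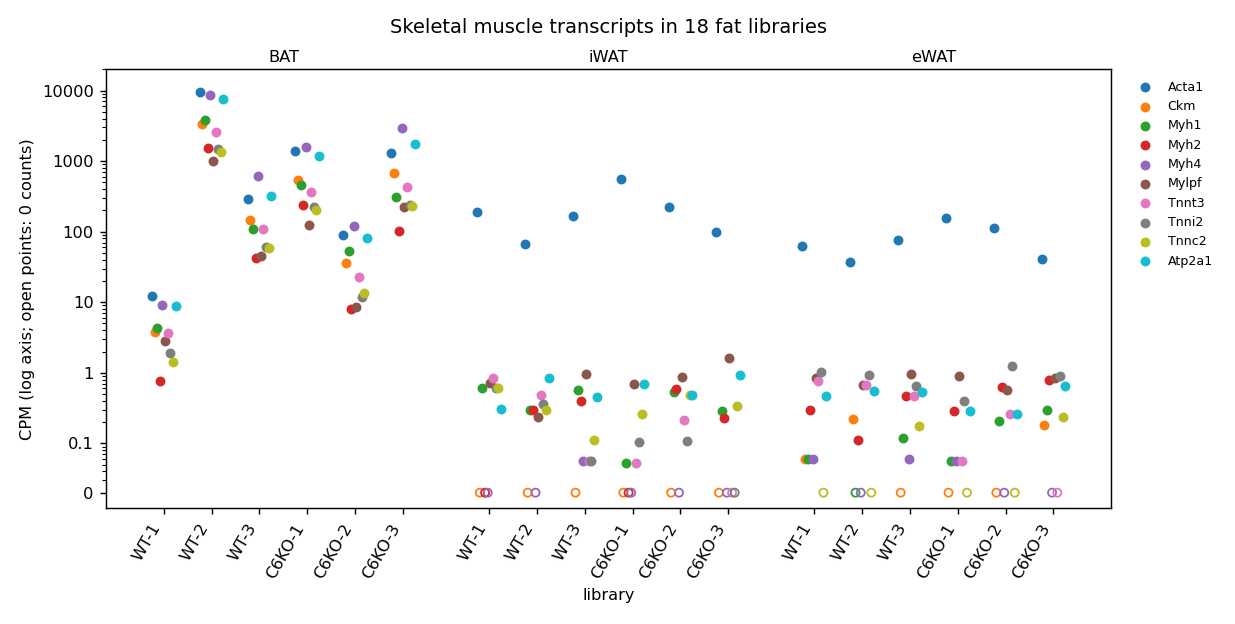
CPM of the 10 transcripts (colours) in each of the 18 libraries, on a log axis, with open points for 0 counts. In BAT all 10 are lowest in WT-1 and highest in WT-2, and in the white depots the highest value of the 9 without Acta1 is 1.603 CPM (Mylpf).

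The 10 transcripts together took 4.10% of all counts in BAT WT-2 (95% Wilson interval 4.09 to 4.11) and 0.00488% in WT-1 (0.00442 to 0.00540), an 840-fold range. The intervals cover counting error only. The other libraries held 0.179% (WT-3), 0.631% (C6KO-1), 0.0444% (C6KO-2) and 0.816% (C6KO-3). From low to high, each library exceeded the one before by 9.09-fold (C6KO-2 over WT-1), 4.03-fold (WT-3), 3.53-fold (C6KO-1), 1.29-fold (C6KO-3) and 5.03-fold (WT-2). The genotypes overlapped, at 1.43% ± 2.32 in WT and 0.497% ± 0.403 in C6KO (SD, n = 3 each), and without WT-2 the mean was 0.0918% over WT and 0.335% over the 5 libraries. Of the 10, 7 had this same order of libraries, and in Acta1, Myh1 and Myh2 only C6KO-1 and C6KO-3 changed places.

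Since the 10 were chosen for their spread, its size is a description. On the log2 scale they spanned 8.45 to 10.96 (median 9.77) from the lowest to the highest BAT library. The median over 13506 genes tested and counted in every BAT library was 1.74-fold.

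White fat held almost none of these transcripts other than Acta1. Ckm had 0 counts in all 6 iWAT libraries, which allows 0.158 to 0.182 CPM (3 counts), and at most 4 counts in an eWAT library. Myh4 had at most 1 count in any of the 12 white libraries. The 9 transcripts without Acta1 summed to 1.84 to 3.70 CPM in iWAT and 2.05 to 3.89 CPM in eWAT, against 36.7 CPM in BAT WT-1 and 31552 CPM in BAT WT-2. The lowest BAT library thus lay above all white libraries for these 9. For the sum of all 10 it did not, because Acta1 made up 91.4% to 99.7% of the sum in white fat, and the sum was 0.00687% to 0.0556% of counts in iWAT and 0.00403% to 0.0161% in eWAT.

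Within the 10, the mixture differed between BAT libraries for some genes and held steady for others. Ckm made up 7.87% to 8.58% of the summed counts in the 6 libraries, although the sum itself ranged 840-fold, and Tnnc2 made up 2.81% to 3.27%. The share of Myh1 ranged from 3.80% in C6KO-3 to 12.1% in C6KO-2, and that of Myh2 from 1.24% in C6KO-3 to 3.82% in C6KO-1. Myh4 went from 18.6% in WT-1 to 35.8% in C6KO-3. Mylpf ranged from 1.94% in C6KO-2 to 5.77% in WT-1, where it rested on 22 counts, and Acta1 from 15.7% in C6KO-3 to 24.9% in WT-1. The shares of Myh1, Myh2 and Mylpf thus varied most, by 2.98-fold to 3.19-fold, and that of Ckm least.

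Slow fibres use another heavy chain, Myh7 (type I), with 11, 15926 and 138 counts in the WT libraries of BAT and 757, 18 and 752 in the C6KO libraries. Per length, Myh7 was 9.03% of the sum of Myh4, Myh1, Myh2 and Myh7 in WT-2 and 8.99% in WT-1, where the 4 genes had only 122 counts. It was 1.81% in WT-3, 3.70% in C6KO-1, 0.787% in C6KO-2 and 2.20% in C6KO-3. Myh4 led in every library, from 56.5% of the 4 in WT-2 to 85.7% in C6KO-3.

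For 5 pairs of a slow and a fast isoform, the slow share per length had a median of 13.9% in WT-2 and 13.4% in WT-1, and of 2.27% in WT-3, 5.65% in C6KO-1, 1.19% in C6KO-2 and 4.46% in C6KO-3. In WT-2 the pair of regulatory light chains, Myl2 and Mylpf, had the highest slow share, at 33.0%. Troponin I had 0 counts of the slow isoform Tnni1 beside 145 of Tnni2 in C6KO-2, which allows a slow share of up to 2.07% of counts (3 counts). In WT-1 each pair rested on 1 to 11 slow counts. WT-2 and C6KO-2 thus differed in fibre-type mixture as well as in amount, by more than the counting error of Myh7 in Myh7 and Myh4 (13.8%, 13.6 to 14.01, against 1.19%, 0.753 to 1.87, of counts), with 1 library each and no replicate check.

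**Figure D2:**
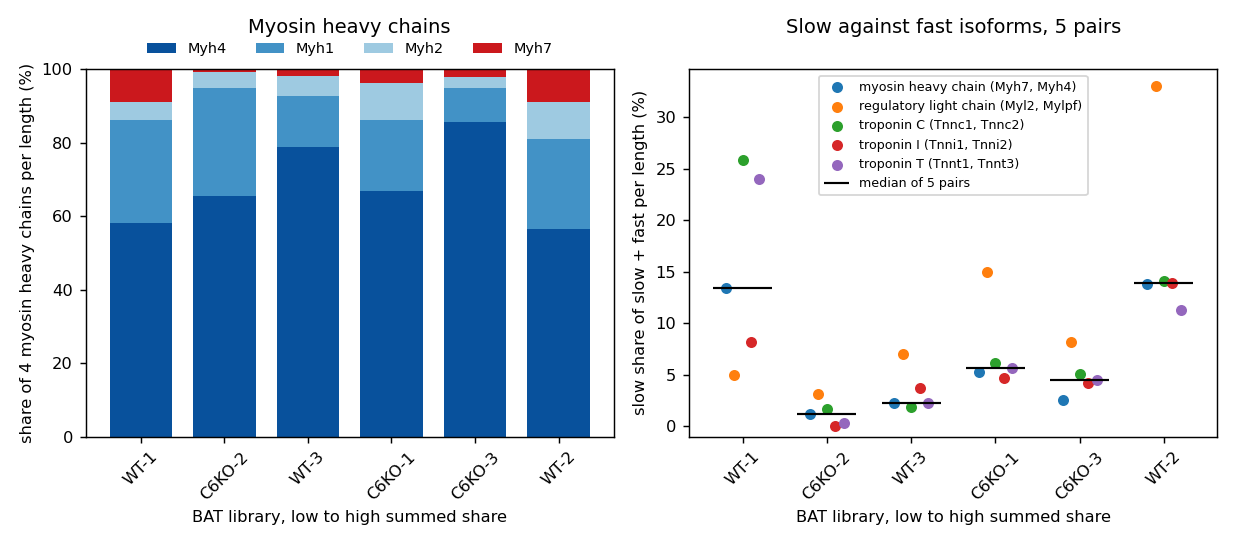
Left, shares of 4 myosin heavy chains per transcript length in each BAT library, ordered from the lowest to the highest summed share of the 10 transcripts. Right, slow share of 5 slow and fast isoform pairs (points) with their median (line): the medians are 13.9% in WT-2 and 1.19% in C6KO-2.

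Another 64 skeletal muscle genes, in 6 lists, showed how far the pattern reached. WT-2 was the highest BAT library for all 64, and WT-2 exceeded WT-1 by at least 100-fold for 38 of them, with WT-1 set to 3 counts where it had 3 or fewer. For 11 others the bound against 3 counts lay under 100-fold. Of the Z-disc and M-band genes, Tcap, which caps titin, went from 0.897 CPM in WT-1 to 989 CPM in WT-2, and Myot, a Z-disc protein, from 0.513 to 656 CPM. Ttn, the giant protein titin, reached 5354 CPM in WT-2. Desmin (Des), the intermediate filament of all muscle, was already at 62.9 CPM in WT-1 and had 1246 CPM in WT-2.

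Among the fast sarcomere genes, the tropomyosin Tpm2 went from 12.9 CPM in WT-1 to 2942 CPM in WT-2, its relative Tpm1 from 41.3 to 1697 CPM, and the essential light chain Myl1 from 36.9 to 635 CPM. Of the calcium genes, parvalbumin (Pvalb), the calcium buffer of fast fibres, went from 1.03 to 858 CPM, and calsequestrin (Casq1), which stores calcium in the sarcoplasmic reticulum, from 1.15 to 370 CPM. Srl, a calcium-binding protein of the same organelle, was at 25.8 and 611 CPM, and r with the 10 was 0.92. Of the energy genes, Pygm, the muscle glycogen phosphorylase, went from 5.77 to 1341 CPM and the muscle enolase Eno3 from 6.15 to 760.3 CPM.

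The genes of satellite cells and muscle regulators named here were at low levels, except Mef2c. Mef2c had 37.3 CPM in WT-1 and 281 CPM in WT-2, and 30.3 to 109 CPM in the white libraries. Myf6, the regulator of mature fibres, had 0 counts in WT-1 and 20.03 CPM in WT-2, at least 52.1-fold higher against 3 counts. Pax7, the satellite cell factor, did not exceed 0.703 CPM in any BAT library, and Myod1 and Myog reached 3.08 and 2.11 CPM in WT-2. Chrna1, a subunit of the acetylcholine receptor, had 0 counts in WT-1 and 9.93 CPM in WT-2. The exceptions with under 10-fold between WT-2 and WT-1 were Tpm3, Atp2a2, Casq2 and Mef2c. Of these, Atp2a2, the slow and housekeeping calcium pump, had 317 CPM in WT-1 and 1203 CPM in WT-2, and 244 CPM in its highest white library. In the white depots 29 of the 64 stayed under 1 CPM in every library, and 7 had at least 10 CPM in all of them (Tpm1, Tpm2, Tpm3, Atp2a2, Des, Pfkm and Mef2c). WT-1 was the lowest BAT library, ties included, for 8 of 10 fast sarcomere, 5 of 11 slow fibre and 13 of 15 Z-disc and M-band genes. It was so for 10 of 11 calcium, 8 of 9 energy and 7 of 8 satellite cell and regulator genes. Among the exceptions, against the order of the 10, Mb, myoglobin, had 80.1 CPM in WT-1 and 24.1 CPM in C6KO-2. Myl1 had 36.9 and 32.8 CPM in these libraries.

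With the 64 added, the muscle genes took 8.11% of all counts in BAT WT-2, 1.53% in C6KO-3 and 1.35% in C6KO-1. They took 0.409% in WT-3, 0.161% in C6KO-2 and 0.0867% in WT-1. The mean of the 6 BAT libraries went from 0.963% ± 1.57 to 1.94% ± 3.08 (SD, n = 6) when the 64 were added, and without WT-2 from 0.335% to 0.706%. The same sum was 0.0702% to 0.118% in iWAT and 0.0867% to 0.102% in eWAT, so BAT WT-1 did not stand above white fat. Part of the sum came from genes also counted in white fat. Atp2a2 alone had 2471 of the 6763 counts in BAT WT-1.

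Other genes were ranked by how closely they followed the mean log2 CPM of the 10 over the 6 BAT libraries, which share depth and preparation with the genes compared. Of 13595 genes tested, the 10 and the list genes included, 202 (1.49%) had a Pearson r of at least 0.95, and 64 had at least 0.99. Among 10999 genes outside all lists with a mean of at least 5 CPM, 123 had at least 0.95 and 30 at least 0.99. Outside the lists, the most alike were A930016O22Rik, which overlaps Ckm, then Klhl31, Myo18b, Eef1a2, Art1, Scn4a, Hrc, Myadml2, Sptb and Rbfox1, with r from 0.9955 (Rbfox1) upward. Scn4a, the sodium channel of muscle, went from 0.256 CPM in WT-1 to 178 CPM in WT-2, and Eef1a2, the elongation factor isoform of muscle and neurons, from 0.897 to 541 CPM. The least alike, with r from -0.988 to -0.994, were Fnta, Mvk, Matr3, Copb1 and E130311K13Rik. These moved far less: Matr3, a nuclear matrix protein, had 201 CPM in WT-1 and 151 CPM in WT-2.

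Markers of other cell types in the same libraries gave the following sums. The 10 brown adipocyte genes summed to 15345 CPM in WT-1 and 6757 CPM in WT-2, and to 10058 to 13087 CPM in the other 4 libraries. Ucp1 itself was lowest in C6KO-3 (4172 CPM) and WT-2 (4332 CPM), and the r of the 10 genes with the muscle level ran from -0.78 (Ucp1) to 0.18 (Prdm16). The 8 adipocyte genes summed to 16761 CPM in WT-2 and 19345 to 24759 CPM in the others. The 5 B and T lymphocyte genes summed to 59.5 CPM in WT-2 and 3.06 to 4.92 CPM in the others, with WT-2 highest for all 5. The part of these cells in the muscle result was not tested.

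Heart muscle markers were near 0. Myl7 and Nppb had 0 counts in all 6 BAT libraries, Nppa at most 0.241 CPM and Myh6 at most 4.22 CPM, in WT-2, and the 8 heart genes summed to 5.07 to 13.9 CPM. The 7 smooth muscle genes summed to 142 to 246 CPM, highest in WT-2, and the leiomodin Lmod1 among them went from 2.05 CPM in WT-1 to 45.5 CPM in WT-2 (r = 0.97). The sums were 54.7 to 84.2 CPM for 5 Schwann cell genes, 67.7 to 855 CPM for 5 red blood cell genes, 0.500 to 4.31 CPM for 3 tendon genes and at most 0.615 CPM for 4 epithelial genes. Macrophage genes (8) summed to 704 to 929 CPM in WT and 240 to 401 CPM in C6KO.

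**Figure D3:**
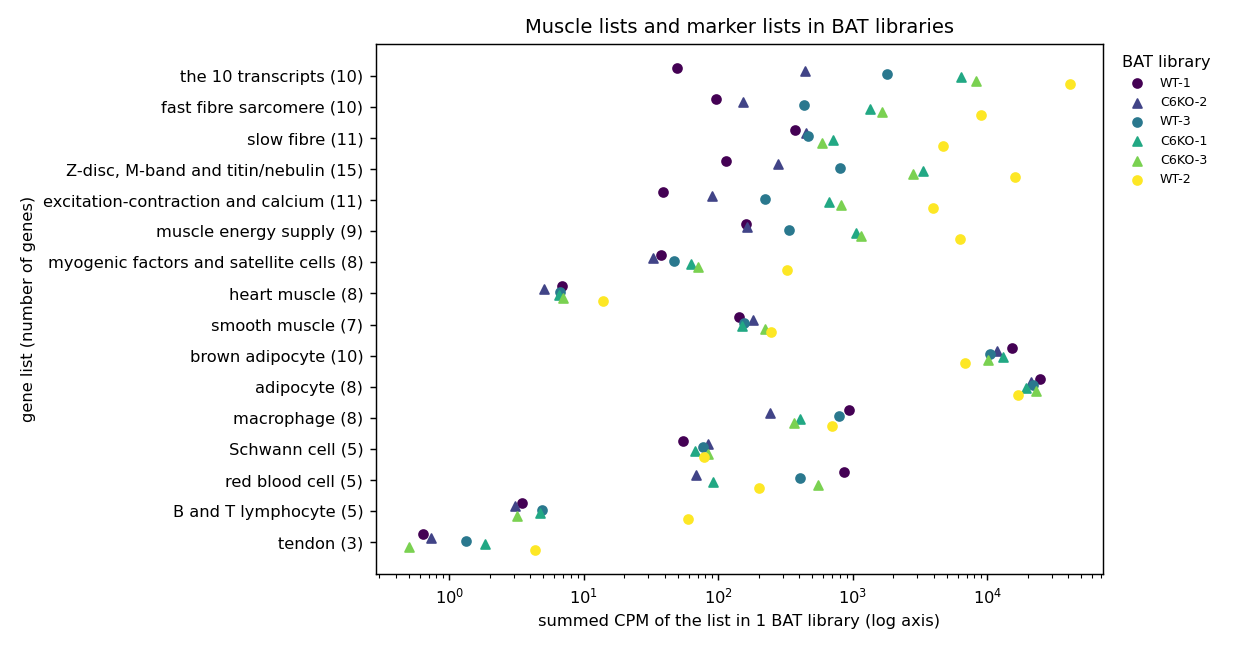
Summed CPM of each gene list in the 6 BAT libraries, on a log axis, circles for WT and triangles for C6KO, coloured from the lowest to the highest summed share of the 10 transcripts; epithelial genes, which reached 0 CPM, are not drawn. The muscle lists spread with the 10, and the brown adipocyte list was lowest in WT-2, at 6757 CPM.

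Whether caspase-6 loss went with a change in these transcripts was asked by comparing 3 C6KO with 3 WT libraries in each depot, with edgeR's quasi-likelihood test over all genes of the table. In BAT all 10 passed the filter on low counts and 0 were called (adjusted p below 0.05 with at least a 1.5-fold change), against 1.24% of the 13595 genes tested. None of the 10 had an unadjusted p below 0.05, against 13.2% of genes, and the genotypes did not separate for any of them, against 20.2% of genes. DESeq2 also called 0, against 2.88% of genes, and gave no p for 5 of the 10 (Acta1, Ckm, Tnnc2, Tnni2 and Tnnt3). The 10 were chosen by the size and spread of these counts, and WT held both the lowest and the highest library. Calls and separation were thus unlikely from the outset, so these counts are not read as a result about the 10. The log2 fold changes of C6KO over WT ran from -2.25 (Myh1, SE 2.40) to -1.04 (Myh4, SE 2.35), with adjusted p-values of 0.764 and 0.888. Their median was -1.69, against -0.03 over all genes tested.

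The direction rested on WT-2. Without it, all 10 log2 fold changes were above 0, from 2.29 (Myh1, SE 1.86) to 2.65 (Acta1, SE 2.11), with a median of 2.34 and adjusted p-values of 0.670 to 0.747. Leaving out any other library kept all 10 below 0, from -3.26 (Myh2 without C6KO-1) to -0.43 (Myh4 without C6KO-2). With the replicate number as a block, they were 1.16 (Myh2) to 2.26 (Atp2a1), with adjusted p-values of 0.934 to 0.969. A difference between the genotypes was thus not detectable in these libraries, in either direction.

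**Figure D4:**
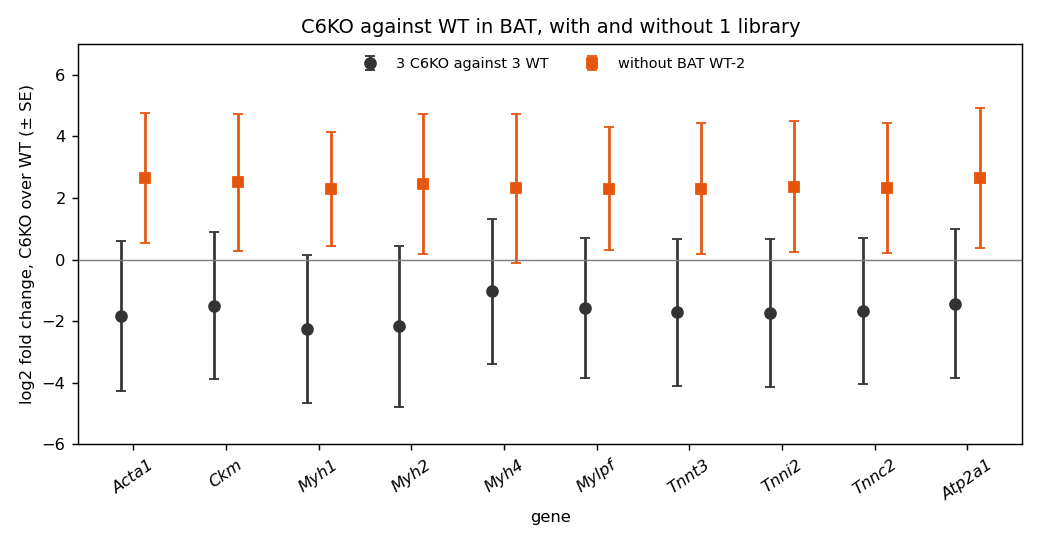
Log2 fold change of C6KO over WT in BAT with its standard error, for each of the 10 transcripts, from all 6 libraries (circles) and without WT-2 (squares). The medians are -1.69 and 2.34.

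The other muscle genes shared the high level in WT-2, which was the highest BAT library for all 64. Of the 64, 56 passed the filter in BAT and 0 were called, against 1.24% of the 13595 genes tested. All 56 had a log2 fold change below 0, with a median of -1.60. With WT-2 highest for each, calls were unlikely from the outset, and the shared sign is not read as a further result. The slow fibre genes had the lowest list median, at -2.99 for 11 genes, with Myl2 at -3.57 (adjusted p = 0.685) and Tnni1 at -3.54 (adjusted p = 0.685, edgeR's quasi-likelihood test). These values rest on WT-2, where Myl2 had 427 CPM, against at most 19.0 CPM in any other BAT library.

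The number of genes called in BAT changed when the level of the 10, chosen for their spread in these libraries, was a term of the fit. Over all genes, 168 were called (23 higher and 145 lower in C6KO), which is 1.24% of genes tested. Of the 202 genes with r of at least 0.95 with the 10, the 10 included, 0 were called. Such genes share the spread within WT, so a call was unlikely for them from the outset. With the mean log2 CPM of the 10 in each library as a covariate, 354 were called (82 higher and 272 lower), which is 2.60% of genes tested. All 168 remained and 186 were added. The largest changes in log2 fold change among the added genes were those of Gimap3 (-3.38 to -2.79, with the SE from 1.40 to 0.548), Cd22 (-3.20 to -2.61) and Kif21b (-2.05 to -1.73). Cd22 is a B cell surface receptor, and Gimap3 is a GTPase of lymphocytes. In WT-2, where the covariate was highest, the B and T lymphocyte genes also summed highest (59.5 CPM, against 3.06 to 4.92 CPM in the others). The fit cannot tell such differences of WT-2 apart, and whether the added calls rest on muscle RNA was not tested.

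Leaving the 10 transcripts and the 64 list genes out of the scaling gave 164 calls, all among the 168. Without WT-2 there were 178 calls, 137 of them shared. Without any other library there were fewer, at 28 (C6KO-3), 29 (C6KO-2), 37 (C6KO-1), 77 (WT-1) and 91 (WT-3).

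In white fat few of the transcripts could be tested. In iWAT 3 of the 10 passed the filter (Acta1, Mylpf and Atp2a1) and 0 were called, against 0.0275% of genes, and in eWAT 3 passed (Acta1, Mylpf and Tnni2) and 0 were called, against 0.746%. None of these had an unadjusted p below 0.05, against 16.5% of genes in iWAT and 17.6% in eWAT, and DESeq2 called 0 in either depot, against 3.55% and 3.15%. DESeq2 gave an adjusted p for only some of the 10, since it was missing for 7 of the 9 with counts in iWAT and for 4 of 10 in eWAT. Tnnt3 in eWAT, which missed the filter, was the only one of the 10 whose genotypes did not overlap there, with 13, 12 and 8 counts in the WT libraries and 1, 5 and 0 in those of C6KO. Such separation occurred for 23.7% of genes tested in eWAT. Without the filter its log2 fold change was -2.42 (SE 0.971, adjusted p = 0.254, edgeR's quasi-likelihood test). Its counts in the eWAT table were taken on another transcript (980 bases) than in the other tables (1032 bases).

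The C6KO difference in BAT was also set against that in each white depot, as an interaction over all 18 libraries. Of the 10, Acta1 alone had at least 95 counts in every library. The other 9 passed the filter of this fit through BAT, with few or 0 counts in white fat, and the SE of their values reached 213 against eWAT (Myh4) and 22991 against iWAT (Ckm), so no count over the 10 is given. Acta1 was not called against iWAT, where 0.183% of genes were, or eWAT, where 0.536% were, and DESeq2 did not call it either (0.799% and 1.66% of genes). Its difference in log2 fold change was -2.93 (SE 2.14, adjusted p = 0.704) against iWAT and -2.67 (SE 2.14, adjusted p = 0.707) against eWAT. Without BAT WT-2 these became 1.49 and 1.75. These comparisons share the BAT libraries with the test within BAT. Acta1 was chosen by its spread there, so a call was unlikely from the outset here too.

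Acta1 behaved apart from the other 9 in white fat. Its iWAT counts were 3130, 1099 and 2973 for WT mice and 10544, 4196 and 1743 for C6KO mice. Its eWAT counts were 1067, 669 and 1284 for WT mice and 2786, 2135 and 695 for C6KO mice. The genotypes overlapped in both depots. The log2 fold changes were 1.15 (SE 0.680, adjusted p = 0.444) in iWAT and 0.89 (SE 0.590, adjusted p = 0.539) in eWAT by edgeR's quasi-likelihood test. Without C6KO-1, its highest library, the iWAT value was 0.25. Per length, Acta1 was 1.70 to 2.85 times Ckm in every BAT library, whereas in iWAT Ckm was at 0 beside up to 10544 counts of Acta1.

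In white fat Acta1 went with Acta2, the actin of smooth muscle and of contractile stromal cells. Per length, Acta1 was 0.318 to 0.526 times Acta2 in iWAT and 0.228 to 0.493 times in eWAT. In BAT the ratio was 0.318 in WT-1, the library with least muscle RNA, and 3.83 to 196 in the other 5. The log2 CPM of both genes correlated across the 6 iWAT libraries (r = 0.96, Spearman's rho = 0.83) and the 6 eWAT libraries (r = 0.89, rho = 0.94), and in BAT r was 0.07. Without the lowest and highest Acta2 library, r was 0.69 in iWAT and 0.70 in eWAT, with 4 libraries each. The points share depot, depth and preparation, and Acta2 ranked 25 of 11317 genes by r with Acta1 in iWAT and 176 of 11758 in eWAT. The transcripts of Acta1 and Acta2 share 0 exact windows of 50 bases, and the placing of reads with mismatches was not tested. The highest Acta1 and Acta2 in white fat were both in iWAT C6KO-1, at 554 and 1845 CPM.

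**Figure D5:**
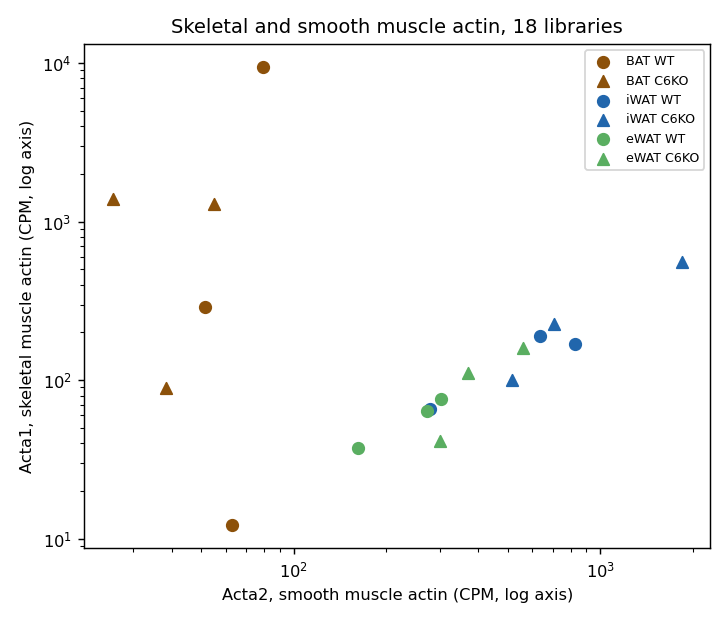
CPM of Acta1 against Acta2 in the 18 libraries, both axes log, colours for depots, circles for WT and triangles for C6KO. The white fat libraries form a rising band, and the BAT libraries spread from 12.2 to 9461 CPM of Acta1 at 25.7 to 79.3 CPM of Acta2.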

How the data were processed

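RNA was isolated with TRIzol from iWAT, eWAT and BAT, and poly(A)-enriched libraries were sequenced by the authors on an Illumina NextSeq. The authors aligned reads to mm10 with STAR and counted exonic reads by HOMER on 1 transcript for each gene, and the deposited tables, 1 per depot, hold these raw counts. Tool versions are not given in the sources used here. The transcript kept differs between tables for 2619 of 25124 genes, 1 of the 10 among them (Tnnt3). Samples were mapped by depot, genotype and replicate from the labels, and 0 value columns stayed unmapped.

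Levels are CPM of total counts, or TPM from the counts and listed lengths. edgeR 4.0.16 in R 4.3.3 (quasi-likelihood, robust, TMM, filterByExpr, Benjamini-Hochberg over all genes tested) compared C6KO with WT per depot, and interactions in 1 fit of 18 libraries. A call needed an adjusted p below 0.05 with at least a 1.5-fold change. Standard errors come from the F statistic. The labels number the replicates of each group but do not name the mouse. Replicates were treated as separate mice, and libraries of different depots as independent in the interaction fit. Alternatives were DESeq2 1.42.0, DESeq2's size factors, total counts, no filter, muscle genes left out of the scaling, all libraries in 1 fit, the replicate block, the muscle covariate and each library left out. On simulated BAT data (13427 genes, log2 fold change 2), 90.3% of changed genes were recovered and 9.74% of calls were false. That is more than the adjusted p threshold of 0.05 aims at. Each gene was drawn on its own, so the spread that the 10 share between libraries was not simulated, and this recovery does not describe them. Log2 CPM for likeness used TMM and a prior count of 1.

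Named genes were all 10 members, the 3 most abundant genes per length of each muscle list, the 10 genes most and 5 least like the 10 at a mean of at least 5 CPM, the brown adipocyte markers, Casp6, the 3 genes changed most by the covariate, and exceptions to counts. Members and lists were chosen with earlier results of these data known. Ttn, Pax7, Myod1, Myog and Lmod1 were named after their values were seen. 1 gene of the lymphocyte list is not reported here, and that list's sums were computed without it. Promoters are RefSeq windows of 250 bases.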

Additional observations from a re-analysis of the deposited data

How the results depend on the processing

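No alternative called any of the 10 transcripts in any depot, or Acta1 in the interactions. Over all genes in BAT, DESeq2 called 2.88% and the fit with the muscle covariate 2.60%. Calls of the 10 were unlikely in BAT from the outset, and the covariate is the mean log2 CPM of the 10 themselves. DESeq2 gave no p for 5 of the 10 in BAT and no adjusted p for 7 of the 9 with counts in iWAT. The lack of calls is thus not read as a result about the 10. In BAT, all 10 log2 fold changes kept their sign under DESeq2, its size factors, total counts, no filter, the scaling without muscle genes and the joint fit of 18 libraries. The deviations of same-numbered WT and C6KO libraries had r of -0.30, -0.60 and -0.24 in BAT, 0.022 to 0.037 in iWAT, and 0.16, -0.10 and 0.16 in eWAT, so in no depot was every r above 0.1. With the replicate number as a block, the values turned to 1.97 (Acta1), 2.04 (Ckm), 1.37 (Myh1), 1.16 (Myh2), 2.11 (Myh4), 1.78 (Mylpf), 1.78 (Tnnt3), 1.79 (Tnni2), 1.78 (Tnnc2) and 2.26 (Atp2a1), and the interactions of Acta1 to 1.18 against eWAT and 0.97 against iWAT. Leaving out 1 library gave ranges of -2.35 to 2.65 (Acta1), -2.03 to 2.505 (Ckm), -2.81 to 2.29 (Myh1), -3.26 to 2.44 (Myh2), -1.85 to 2.32 (Myh4), -2.37 to 2.30 (Mylpf), -2.24 to 2.31 (Tnnt3), -2.26 to 2.37 (Tnni2), -2.20 to 2.31 (Tnnc2) and -2.04 to 2.64 (Atp2a1), with the upper end always without WT-2. For the interactions of Acta1 the ranges were -3.25 to 1.75 against eWAT and -3.51 to 1.49 against iWAT. In eWAT, values near 0 changed sign: Tnni2 was -0.055 with the replicate block, -0.029 with total counts and -0.40 to 0.34 with 1 library left out, and Mylpf was -0.19 to 0.15. Over all genes in BAT, calls went from 168 to 545 with DESeq2, 525 with all 18 libraries in one fit (149 shared with the 168), 354 with the muscle covariate, 113 with the replicate block and 28 to 178 with 1 library left out; the cause was not tested. In each white depot 7 of the 10 transcripts missed the filter, although these libraries had more counts than those of BAT. Acta1 in iWAT was 0.25 to 1.55 with 1 library left out.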
